A study of Mus musculus with 10 samples.

Results

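The transcription factors of the Runx1-Erg circuit were followed in murine Mll-AF9 leukaemia cells after knockdown of Meis1. The circuit was taken as 10 genes, Runx1, Cbfb, Erg, Fli1, Gata2, Tal1, Lyl1, Lmo2, Gfi1b and Myb, and every probe set whose single annotated gene symbol was in that list was included. The 10 genes, of 18193 named on the array, had 20 of its 45037 probe sets, and no probe set with several symbols held any of them. RNA of cells transduced with a lentivirus carrying a short hairpin RNA (shRNA) against Meis1 was hybridised to 5 arrays, and RNA of cells that received the vector alone to 5 more. All cells, numbered 4166, carried the Mll-AF9 fusion, grew with 15% serum and 2 ng/ml interleukin 3, were under puromycin selection and were collected 48 h after transduction, and samples of equal number were paired. They are therefore replicates of a single line and, as far as the labels tell, of a single hairpin, with no second hairpin and no non-targeting hairpin among the samples analysed here. Whether the 5 samples of each group were grown as separate cultures is not stated, and the p-values cover the spread among these samples alone.

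Most of these proteins sit together on enhancers of blood stem and progenitor cells, and several help to hold each other's genes active. Runx1 binds DNA as a heterodimer with its non-DNA-binding partner Cbfb, Erg and Fli1 are close relatives of the ETS family, and Gata2 is a zinc finger factor. Tal1 and Lyl1 are related helix-loop-helix proteins that the adaptor Lmo2 links to GATA factors, Gfi1b is a repressor, and Myb is needed for the growth of progenitors and of many acute leukaemias. Meis1, a homeodomain factor, occupies many of the same enhancers as these proteins in progenitor cells.

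Levels are linear intensities of a probe set, and changes are log2 differences, Meis1 shRNA minus empty vector, from limma with the pair as a block. A change was called at an adjusted p under 0.05 over all 45037 probe sets. Meis1 itself read 192.6, 220.7, 126.7, 142.4 and 140.2 in shRNA samples 1 to 5, against 395.9, 413.1, 297.1, 332.7 and 290.3 in empty vector samples 1 to 5 (1450992_a_at), so the knockdown was present in every pair and partial, with a level 2.13-fold lower, a change of -1.09 (SE 0.09, adjusted p = 0.000767 by limma). The dim Meis1 probe sets 1443260_at and 1459423_at changed by 0.09 and 0.11 (adjusted p = 0.694 and 0.664 by limma). The bacterial Trpn control probe sets, taken as background, read 3.28 to 4.92. The integrity ratio, which sets the 3 prime against the 5 prime control probe sets for Gapdh and beta-actin and is higher in more degraded RNA, was 0.37 ± 0.02 on the log2 scale in shRNA samples and 0.28 ± 0.06 in empty vector samples (SD, n = 5 each), higher in the shRNA sample of all 5 pairs (p = 0.0625 by a two-sided exact sign-flip test, the minimum for 5 pairs). Its part in the changes of the circuit genes was not tested beyond the covariate fits given with them. Because the ratio was higher with the shRNA in every pair, those fits separate ratio and hairpin poorly. The standard error was larger in them for every probe set of the circuit. Within the empty vector group this ratio ran between 0.20 in sample 4 and 0.37 in sample 5, and sample 5 thus lay at the level of the shRNA arrays.

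Runx1 and Fli1 fell, each in some of its probe sets and not in others. In all, 4 of the 20 probe sets were called lower and none higher by limma, against 1.96% of all probe sets called lower and 2.48% called in either direction. Of the 4, 3 belonged to Runx1 and 1 to Fli1, so they stand for 2 genes. Changes were below 0 in 18 of the 20 probe sets, with a median of -0.24, against 0.01 over all probe sets. In 10 of the 20, the shRNA sample was lower in all 5 pairs, against 8.56% of all probe sets. Among those with a mean log2 level above 5 this held for 6 of 12, against 21.3% of all such probe sets. Taken by its brightest probe set, 1 of the 10 genes was called (Runx1), against 2.34% of all genes called lower in this way. In bulk RNA, fewer cells that express a gene and less of its RNA per cell cannot be told apart.

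**Figure D1:**
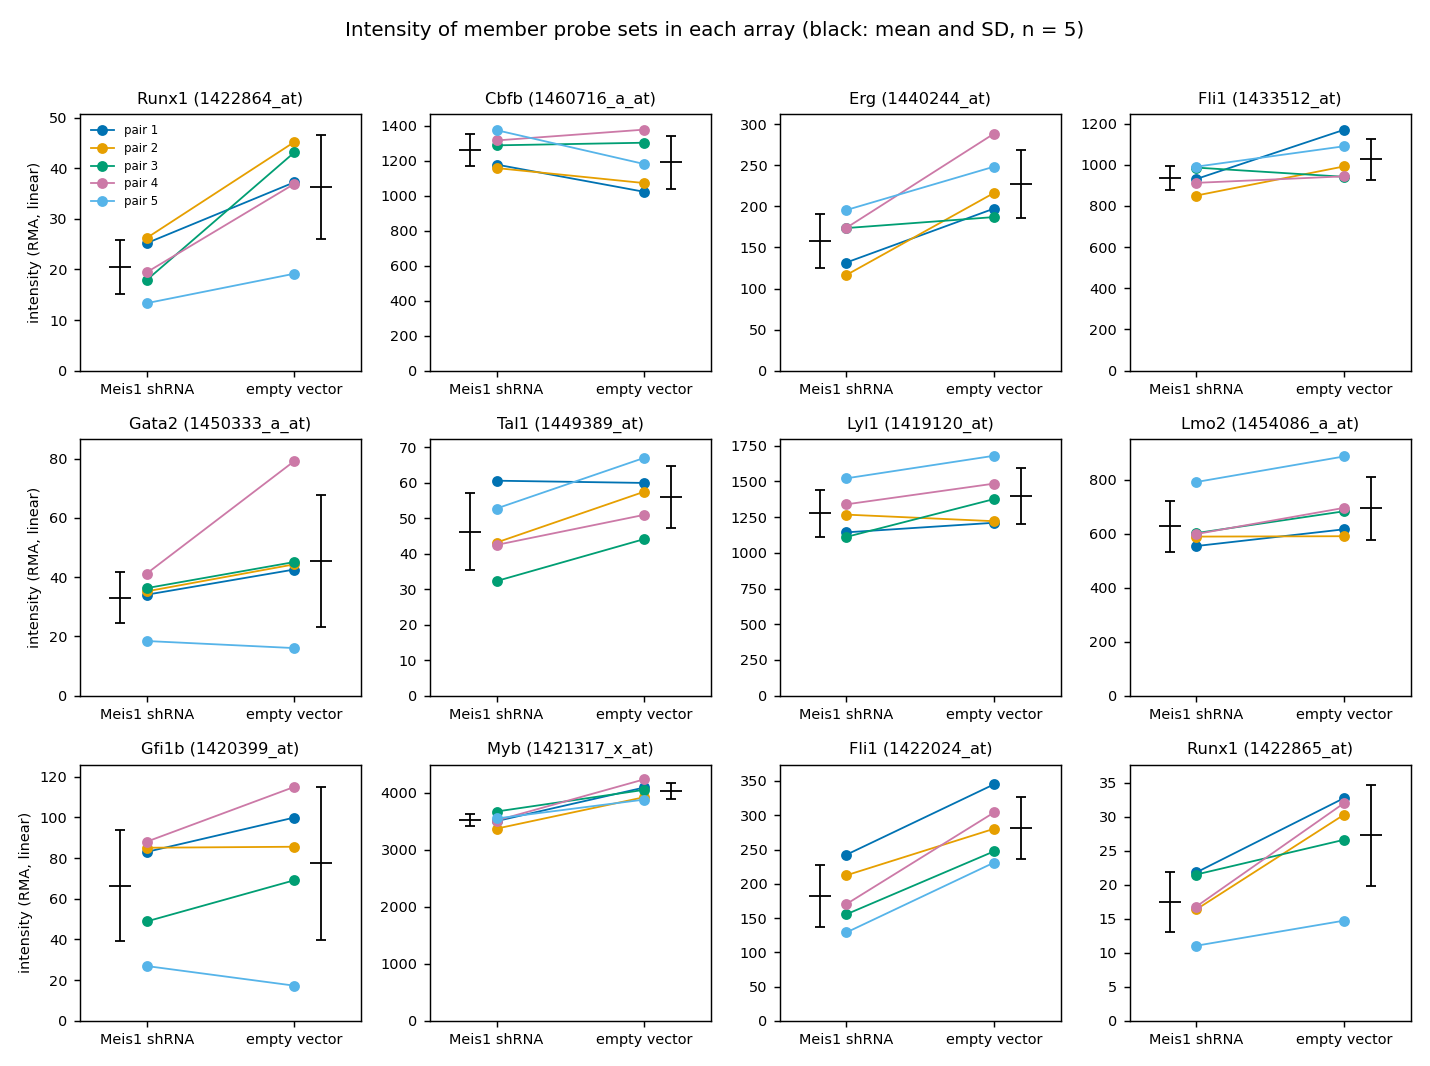
Intensity on a linear axis in each array for the brightest probe set of the 10 genes and for further called probe sets of Fli1 and Runx1, with Meis1 shRNA at left and empty vector at right; lines join the samples of a pair, and black marks give the mean and SD (n = 5). All 5 lines of Runx1 1422864_at, Erg 1440244_at and Fli1 1422024_at climb towards the empty vector, while those of Cbfb lie nearly flat.

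**Figure D2:**
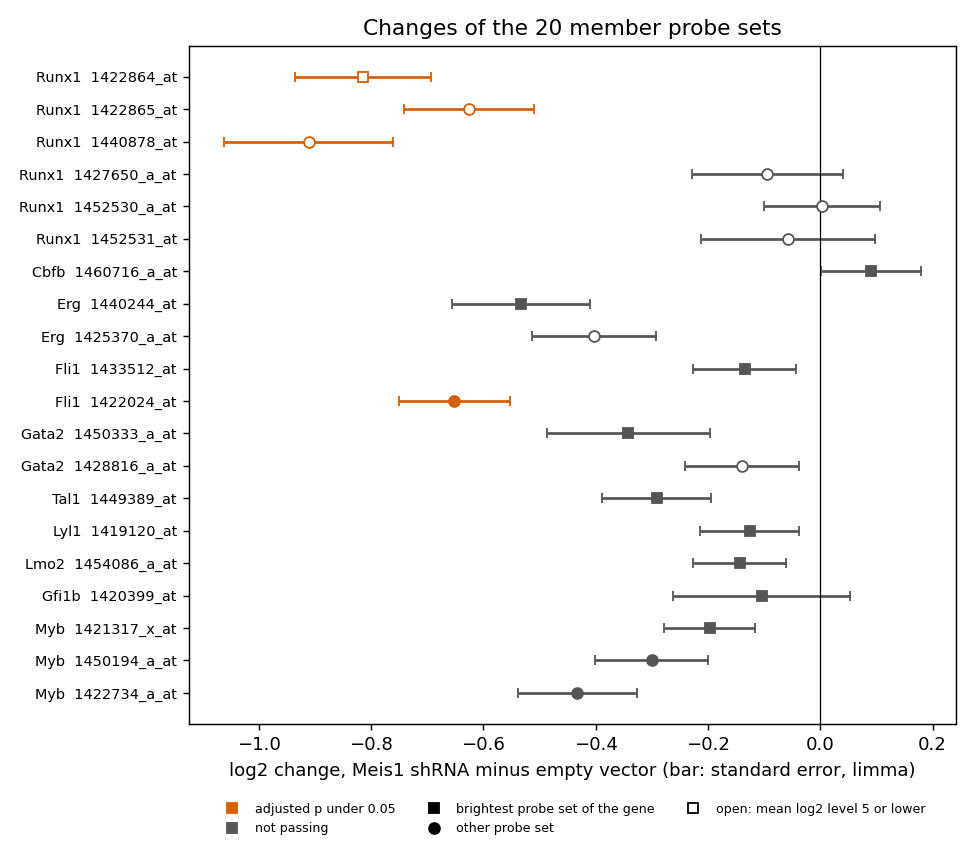
Log2 change (Meis1 shRNA minus empty vector) of the 20 probe sets with its standard error. The 4 called probe sets, in orange, lie between -0.91 and -0.63, and 3 further Runx1 probe sets lie near 0.

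Runx1, on chromosome 16, is the DNA-binding subunit of core binding factor and a frequent target of mutation and fusion in leukaemia. The probe set 1422864_at read 25.2, 26.2, 17.9, 19.4 and 13.3 in shRNA samples 1 to 5, against 37.3, 45.2, 43.2, 37.0 and 19.2 in empty vector samples 1 to 5. The group means were 20.4 ± 5.35 with the shRNA and 36.4 ± 10.3 with the empty vector (SD, n = 5 each). Each shRNA sample was below its partner, but the groups overlapped because empty vector sample 5 was low. Runx1 fell by 0.81 at this probe set in log2 units (SE 0.12, adjusted p = 0.0112 by limma), 1.76-fold.

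A second Runx1 probe set behaved alike. At 1422865_at the shRNA samples 1 to 5 read 21.8, 16.4, 21.5, 16.8 and 11.1, against 32.8, 30.3, 26.6, 32.0 and 14.7 in the empty vector samples. The change was -0.63 (SE 0.12, adjusted p = 0.0280 by limma). At the dimmest called probe set, 1440878_at, the shRNA samples read 12.1, 11.7, 8.98, 8.64 and 6.47, against 21.8, 20.7, 13.1, 26.9 and 10.5 in the empty vector samples. Here the change was -0.91 (SE 0.15, adjusted p = 0.0175 by limma), and pair 4, with a difference of -1.64, stood lowest. In all 3 probe sets sample 5 was the lowest of both groups.

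The other 3 Runx1 probe sets were dimmer still and moved little. 1427650_a_at read 8.92 to 13.6 in shRNA samples and 8.11 to 14.5 in empty vector samples, with a change of -0.09 (SE 0.13). 1452530_a_at read 7.43 to 10.1 in shRNA samples and 8.04 to 9.59 in empty vector samples, with a change of 0.003 (SE 0.10). 1452531_at, at 4.00 to 7.98 with the shRNA and 5.14 to 6.29 with the empty vector, reached down to the intensities of the Trpn controls and changed by -0.06 (SE 0.15). Set against 1422864_at pair by pair, the change of each of these 3 was the less negative in all 5 pairs, by means of 0.72, 0.82 and 0.76 (p = 0.0625 each by the exact sign-flip test, or 0.125 adjusted over the 10 such comparisons within genes). Their mean log2 levels over the 10 arrays were 3.47, 3.18 and 2.46, and those of the 3 called probe sets were 4.72, 4.40 and 3.68, so call and signal level ran together. The part of signal level in the calls was not tested, and which transcripts each probe set detects was not analysed here.

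Without the pairing, or without some of the pairs, the Runx1 calls were lost while the changes stayed large. With no replicate block the changes were the same and the adjusted p was 0.127, 0.264 and 0.102 for 1422864_at, 1422865_at and 1440878_at. Leaving out a pair ended the call of 1422864_at for pairs 2 and 4 (0.0516 and 0.0646), of 1422865_at for pairs 1, 2 and 4 (0.0952, 0.106 and 0.123), and of 1440878_at for pairs 1 and 2 (0.0642 and 0.0685), with changes over the 5 leave-outs of -0.89 to -0.70, -0.70 to -0.55 and -1.002 to -0.73. With a pseudocount of 16 the changes shrank to -0.51, -0.36 and -0.42, and only 1422864_at passed (adjusted p = 0.0311, 0.0512 and 0.0708 by limma). With the integrity ratio in the fit, a fit in which no probe set on the array passed, the changes were -0.66, -0.42 and -0.43 (SE 0.23, 0.21 and 0.21). In a separate fit without that ratio, the Runx1 change averaged over 6 probe sets was -0.42 (adjusted p = 0.0265 over genes by limma).

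Runx1 is transcribed from a distal and a proximal promoter. The RefSeq windows of both (GRCm38.p6, 250 bases before to 50 after the start, minus strand) are shown because Runx1 was the gene called in most probe sets and because the windows differ in the letters that its own protein binds. The distal window lies at chr16:92826025-92826324 and the proximal window at chr16:92697280-92697579. Capitals mark every match, on either strand, to the core letters TGTGGT for RUNX factors, GGAAG for ETS factors, GATAA for GATA factors, TGACAG for MEIS factors, AACGG for MYB factors and CAGNTG for the E-box of helix-loop-helix factors.
Runx1 distal window: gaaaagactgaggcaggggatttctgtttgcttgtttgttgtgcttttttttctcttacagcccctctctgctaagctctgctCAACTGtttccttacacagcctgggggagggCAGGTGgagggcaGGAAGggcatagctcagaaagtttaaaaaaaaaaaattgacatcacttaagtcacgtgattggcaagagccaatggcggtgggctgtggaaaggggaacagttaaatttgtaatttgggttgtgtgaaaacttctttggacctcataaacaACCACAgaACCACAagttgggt
Runx1 proximal window: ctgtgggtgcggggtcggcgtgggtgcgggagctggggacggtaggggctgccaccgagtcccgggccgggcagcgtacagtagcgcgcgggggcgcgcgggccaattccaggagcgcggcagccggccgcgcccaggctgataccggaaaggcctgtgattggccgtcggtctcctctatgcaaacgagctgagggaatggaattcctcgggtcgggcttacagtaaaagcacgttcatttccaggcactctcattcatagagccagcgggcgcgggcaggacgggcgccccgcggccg
The distal window held the RUNX letters at 2 places, both on the minus strand relative to the gene, 28 to 33 and 36 to 41 bases after the start, which is counted as 0. It also held the ETS letters once and the E-box letters at 2 places. None of these motifs overlapped another. The proximal window held none of the 6 motifs. Over all 32851 windows of this length, 16.8% held the RUNX letters, 71.4% the ETS letters, 25.4% the GATA letters, 19.2% the MEIS letters, 17.4% the MYB letters and 51.4% the E-box letters. Among 13 windows of the circuit genes, which covered 8 of the 10 genes (all but Fli1 and Lmo2), the distal Runx1 window alone held the RUNX letters. A match describes letters only and is not evidence of binding.

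Cbfb, on chromosome 8, stabilises Runx1 on DNA and is shared by all RUNX proteins. Its probe set read 1179, 1159, 1289, 1317 and 1376 in shRNA samples 1 to 5, against 1023, 1073, 1304, 1379 and 1182 in empty vector samples 1 to 5 (1460716_a_at). The shRNA sample was higher in 3 pairs and lower in 2. The change was 0.09 (SE 0.09, adjusted p = 0.719 by limma), the only one of the brightest probe sets of the 10 genes above 0.

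Among the ETS factors, Fli1 on chromosome 9 is required for megakaryocytes and blood vessels and, with Erg, for stem cell maintenance. At the probe set 1422024_at it read 242, 212, 156, 170.4 and 129 in shRNA samples 1 to 5, against 345, 280.3, 247, 304 and 231 in empty vector samples 1 to 5. The means were 182 ± 45.3 with the shRNA and 282 ± 45.5 with the empty vector (SD, n = 5 each), and only shRNA sample 1 reached into the range of the empty vector group. Fli1 fell by 0.65 here in log2 units (SE 0.10, adjusted p = 0.0124 by limma), 1.57-fold, and the pair differences lay between -0.84 and -0.40.

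The brighter Fli1 probe set did not follow. At 1433512_at the shRNA samples read 931, 850.4, 986, 912 and 991, against 1170, 992, 942, 944 and 1090 in the empty vector samples. The groups overlapped, the shRNA sample was lower in 4 of 5 pairs, and the change was -0.13 (SE 0.09, adjusted p = 0.580 by limma). The change at 1422024_at was the more negative in all 5 pairs, by a mean of 0.52 on the log2 scale (1422024_at minus 1433512_at, p = 0.0625 by the exact sign-flip test, or 0.125 adjusted over the 10 comparisons). Averaged over both probe sets the Fli1 change was -0.39 (adjusted p = 0.0161 over genes). The call at 1422024_at was lost with no replicate block (0.0799) and without pair 3 or pair 4 (0.0521 and 0.0681). With the integrity ratio in the fit the change was -0.60 (SE 0.19).

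Erg, on chromosome 16, is an ETS factor that sustains stem cells and is an oncogene in acute leukaemia. The probe set 1440244_at read 132, 116, 174, 174 and 196 in shRNA samples 1 to 5, against 198, 217, 187, 289 and 249 in empty vector samples 1 to 5. The shRNA sample was lower in all 5 pairs, least in pair 3 with a difference of -0.11, and shRNA sample 5 overlapped the empty vector range. The change was -0.53 (SE 0.12), with an adjusted p of 0.0642 by limma over all probe sets and of 0.0489 over 18193 genes with 1 probe set each. With trend and robust moderation of the variances it passed over all probe sets (0.00974). It did not pass with no replicate block (0.139), or with any pair left out (0.0565 to 0.246). Whether Erg passes thus depends on the fit and on what is tested with it. The dim probe set 1425370_a_at read 6.87 to 7.77 in shRNA samples and 7.98 to 12.4 in empty vector samples, without overlap, and changed by -0.40 (SE 0.11, adjusted p = 0.115 by limma). Groups with no overlap, lower in the shRNA samples, were found for 3 of the 20 probe sets and for 2.75% of all. With the integrity ratio in the fit the Erg changes were -0.40 and -0.08 (SE 0.23 and 0.17).

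The RefSeq table held 3 windows for Erg. The one shown, at chr16:95459299-95459598 on the minus strand (GRCm38.p6), was chosen because it was the only one of the 13 windows of the circuit genes with the MEIS letters. It makes up 7.69% of the 13, against 19.2% of all windows with these letters, and a match is not evidence of binding.
Erg window: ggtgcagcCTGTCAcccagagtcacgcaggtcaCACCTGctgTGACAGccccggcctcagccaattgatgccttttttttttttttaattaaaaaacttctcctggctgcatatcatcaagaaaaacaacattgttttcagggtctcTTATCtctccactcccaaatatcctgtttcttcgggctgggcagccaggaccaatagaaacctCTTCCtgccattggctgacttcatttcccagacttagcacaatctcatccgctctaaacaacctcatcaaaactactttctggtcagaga
Capitals mark the same 6 motifs. The MEIS letters TGACAG stood at -242 to -237 on the minus strand relative to the gene and at -208 to -203 on the plus strand. The E-box letters lay between them at -217 to -212, the GATA letters at -103 to -99 and the ETS letters at -40 to -36, each on the minus strand relative to the gene, with no overlap. Which start site the cells used was not analysed here.

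Myb, on chromosome 10, keeps progenitors in an immature, cycling state and is needed by Mll-AF9 leukaemia cells. Its 3 probe sets were all lower in the shRNA sample of all 5 pairs, yet none passed. The probe set 1422734_a_at read 1326, 1049, 1481, 1287 and 1512 in shRNA samples 1 to 5, against 1825, 1754, 1785, 1879 and 1670 in empty vector samples 1 to 5. These groups did not overlap, and the change was -0.43 (SE 0.11, adjusted p = 0.0788 by limma). At 1450194_a_at the shRNA samples read 1748, 1528, 2156, 1767 and 1967, against 2511, 2023, 2242, 2350 and 2117 in the empty vector samples, a change of -0.30 (SE 0.10, adjusted p = 0.198 by limma).

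The brightest Myb probe set moved least. At 1421317_x_at, whose suffix marks probes that may match other transcripts, the shRNA samples read 3499, 3367, 3667, 3509 and 3545, against 4088, 3918, 4047, 4231 and 3876 in the empty vector samples. The groups did not overlap, but the change was only -0.20 (SE 0.08, adjusted p = 0.303 by limma). The change at 1422734_a_at was the more negative in all 5 pairs, by a mean of 0.24 (1422734_a_at minus 1421317_x_at, p = 0.0625 by the exact sign-flip test, or 0.125 adjusted over the 10 comparisons). With trend and robust moderation of the variances, which lets bright probe sets have a smaller variance, all 3 passed (adjusted p = 0.00184, 0.0119 and 0.00780 for 1422734_a_at, 1450194_a_at and 1421317_x_at by limma). In that order, none passed without moderation (0.253, 0.323 and 0.133) or with no replicate block (0.0593, 0.225 and 0.250). With pairs left out, only 1422734_a_at passed, and only without pair 5 (0.0443). With the integrity ratio in the fit the changes were -0.30, -0.16 and -0.13 in the same order (SE 0.20, 0.19 and 0.15).

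**Figure D3:**
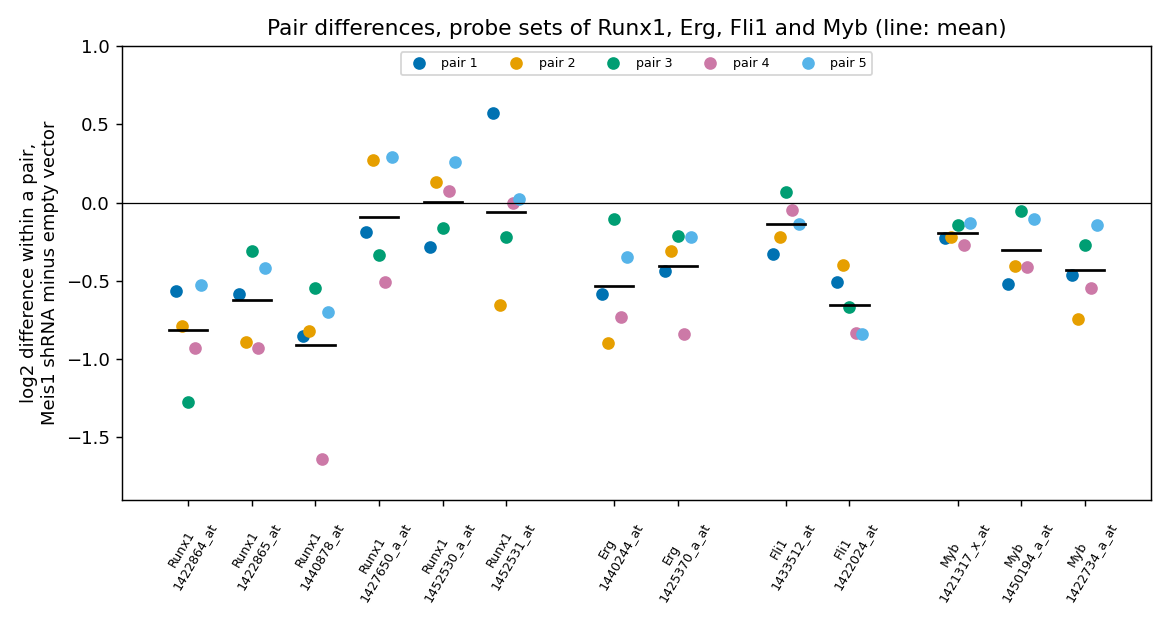
Log2 difference within each pair (Meis1 shRNA minus empty vector) at the probe sets of Runx1, Erg, Fli1 and Myb; a line marks the mean of the 5 pairs. Every point of 3 Runx1 probe sets, both Erg probe sets, Fli1 1422024_at and the 3 Myb probe sets lies below 0.

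Gata2, on chromosome 6, maintains stem cells and directs mast cells and basophils. At 1450333_a_at it read 34.1, 35.2, 36.3, 41.2 and 18.5 in shRNA samples 1 to 5, against 42.6, 44.4, 45.1, 79.2 and 16.1 in empty vector samples 1 to 5. Pair 5 ran the other way from the rest, with the lowest values of both groups, and empty vector sample 4 was the highest. The change was -0.34 (SE 0.15, adjusted p = 0.316 by limma), and with the integrity ratio in the fit it was 0.19 (SE 0.17). Single pairs moved it, to -0.19 without pair 4 and to -0.48 without pair 5. The second probe set, 1428816_a_at, ran between 17.9 and 32.5 in shRNA samples and between 16.3 and 34.2 in empty vector samples, with a change of -0.14 (SE 0.10, adjusted p = 0.606 by limma).

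Gfi1b, on chromosome 2, is a transcriptional repressor required for erythroid and megakaryocytic development. It read 83.0, 85.1, 48.9, 88.0 and 26.9 in shRNA samples 1 to 5, against 99.9, 85.6, 69.1, 115 and 17.3 in empty vector samples 1 to 5 (1420399_at). Like Gata2 it was lowest in sample 5 of both groups and higher with the shRNA in that pair only. The change was -0.10 (SE 0.16, adjusted p = 0.834 by limma). Its sign turned after quantile normalization (0.02, SE 0.16) and with the integrity ratio in the fit (0.37, SE 0.23). Single pairs moved it too, to -0.0052 without pair 3, -0.034 without pair 4 and -0.29 without pair 5 (adjusted p = 0.207 by limma).

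The helix-loop-helix factors and their adaptor did not pass. Tal1, on chromosome 4, is the founding member of this complex and read 60.6, 43.1, 32.3, 42.5 and 52.7 in shRNA samples 1 to 5, against 59.95, 57.5, 44.1, 51.0 and 67.0 in empty vector samples 1 to 5 (1449389_at). The groups overlapped, pair 1 was level, and the change was -0.29 (SE 0.10, adjusted p = 0.195 by limma). Lyl1, on chromosome 8, can stand in for Tal1 in adult stem cells. It read 1143, 1267, 1111, 1339 and 1521 in shRNA samples, against 1210, 1221, 1376, 1484 and 1679 in empty vector samples (1419120_at), a change of -0.13 (SE 0.09, adjusted p = 0.594 by limma).

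Lmo2, on chromosome 2, bridges these factors to GATA proteins and is an oncogene in T cell leukaemia. It read 555, 589.7, 603, 599 and 792 in shRNA samples 1 to 5, against 617, 591, 684, 696 and 887 in empty vector samples 1 to 5 (1454086_a_at). The shRNA sample was lower in all 5 pairs by small steps, and sample 5 was the highest of both groups. The change was -0.14 (SE 0.08, adjusted p = 0.491 by limma).

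The pairs did not contribute alike. Over the 20 probe sets the shRNA sample was lower in 17, 16, 19, 19 and 13 for pairs 1 to 5, with median differences of -0.30, -0.37, -0.25, -0.40 and -0.14. Empty vector sample 4 was the highest of its group in 10 of the 20 probe sets and empty vector sample 5 the lowest in 12. These were also the arrays with the lowest and the highest integrity ratio of that group, and the part of the ratio in this order was not tested. With the ratio in the fit, further changes were 0.22 (SE 0.16) for Cbfb, -0.17 (SE 0.18) for Fli1 1433512_at and -0.12 (SE 0.20) for Gata2 1428816_a_at. Those of Tal1, Lyl1 and Lmo2 were -0.38 (SE 0.18), -0.10 (SE 0.17) and -0.09 (SE 0.16).

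The RNA of genes around the circuit was read through a list of relatives and partners of the 10 factors. Of 37 measured genes of 38 listed, 2 fell, none rose and 35 did not pass, with a median change of -0.06, against 0.004 over all 18193 genes, of which 3.16% were called in either direction. Lmo4, a LIM-only relative of Lmo2, read 75.1 on average with the shRNA and 124 with the empty vector, and fell by 0.75 in log2 units (SE 0.16, adjusted p = 0.0444 by limma). Gabpa, an ETS factor of housekeeping and stem cell genes, averaged 371 with the shRNA and 558 with the empty vector, and fell by 0.60 in log2 units (SE 0.10, adjusted p = 0.0182 by limma). Lmo4 lost its call when pair 2, 3, 4 or 5 was left out (adjusted p of 0.0957, 0.143, 0.129 and 0.0585) or after quantile normalization (0.0752), and Gabpa lost its call when pair 1, 2, 3 or 4 was left out (0.0825, 0.0781, 0.0578 and 0.0909). The count of called genes was 5 with the level filter and 5 (4 lower, 1 higher) with trend and robust moderation. On the whole array those settings called 2040 of 11215 and 2309 of 45037 probe sets, and the filter left out 9 of the 37 genes. The count was 1 after quantile normalization and 0 with the integrity ratio in the fit. In that fit Lmo4 was at -0.41 and Gabpa at -0.36.

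Of 26 measured genes of 27 reported elsewhere as targets of these factors, 2 fell, none rose and 24 did not pass, with a median change of -0.09. The 2 were Meis1, which the hairpin targets, and Kit, the receptor for stem cell factor, whose gene is bound by Gata2 and Tal1 in progenitors. Over all 18193 genes, 3.16% were called in either direction and 2.34% lower. Kit averaged 217.5 with the shRNA and 370 with the empty vector, and fell by 0.78 in log2 units (SE 0.08, adjusted p = 0.00237 by limma). With no replicate block the change was the same and the call was lost (adjusted p = 0.218). With the integrity ratio in the fit it was at -0.80. The count of called targets was 4 with median centring, 7 (6 lower, 1 higher) with trend and robust moderation, 1 with no replicate block and 0 with the integrity ratio in the fit. The myeloid granule genes Elane (-0.40, SE 0.09), Mpo (-0.15, SE 0.08) and Prtn3 (-0.13, SE 0.08), reported targets of Runx1 or Myb, did not pass (adjusted p = 0.0521, 0.461 and 0.526 by limma). Nor did Cdk6 (-0.38, SE 0.09, adjusted p = 0.0561 by limma) or Spi1, the myeloid ETS factor (0.33, SE 0.11, adjusted p = 0.175 by limma). Gata1 and Csf2, at 6.13 and 4.45 on average in the empty vector samples, were near the Trpn controls.

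**Figure D4:**
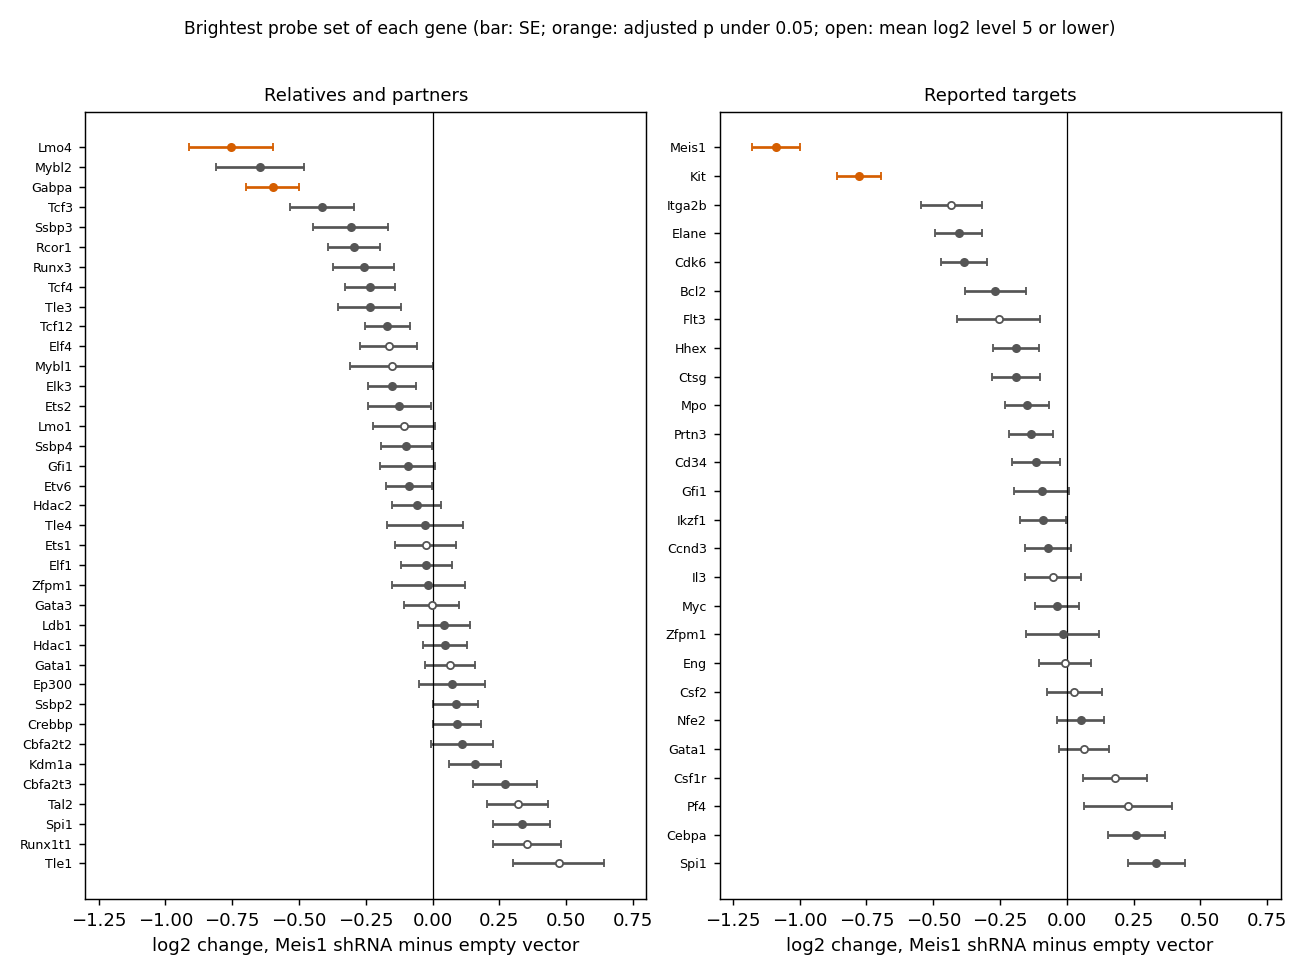
Log2 change (Meis1 shRNA minus empty vector) with its standard error for the brightest probe set of each gene among relatives and partners (left) and reported targets (right); orange marks an adjusted p under 0.05 and open points a mean log2 level of 5 or lower. Lmo4 and Gabpa at left and Meis1 and Kit at right are the called genes.

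The cells read as myeloid, and markers of most other lineages that use these factors were dim. Of 10 genes expected in such cells, 9 had a mean log2 level above 5, among them Mpo, Ptprc, Hoxa9 and Spi1, and Fcgr3 was below it. The 10 summed to 12860 to 16613 with the shRNA and 14129 to 18438 with the empty vector, lower in all 5 pairs (p = 0.0625 by the exact sign-flip test). Most of that sum was Mpo, at 9845 on average with the shRNA and 10913 with the empty vector. Gene by gene, 5 of the 10 changes were below 0 and the rest above, with a median of 0.04. Only Meis1, which the hairpin targets, was called. All 7 erythroid, 8 megakaryocytic, 9 lymphoid and 7 endothelial markers measured were under the log2 level of 5 and none was called. Their summed intensities were 36.4 to 41.2 with the shRNA and 35.3 to 45.3 with the empty vector for the erythroid list, 48.8 to 56.01 and 47.0 to 60.3 for the megakaryocytic list, 43.5 to 47.1 and 41.6 to 43.7 for the lymphoid list, and 30.2 to 35.2 and 30.3 to 34.6 for the endothelial list, each with the shRNA range before the empty vector range. The mast cell and basophil list, whose lineages depend on Gata2, summed to 255 to 386 with the shRNA and 315 to 641 with the empty vector, lower in all 5 pairs (p = 0.0625 by the exact sign-flip test). Most of that sum was the basophil protease Mcpt8, at 214 to 346 with the shRNA and 273 to 598 with the empty vector, the 1 of 8 measured markers above that level. The other 7 summed to 36.7 to 41.65 with the shRNA and 37.7 to 43.2 with the empty vector, lower in 3 pairs and higher in 2, and the defining markers Cpa3, Fcer1a and Ms4a2 averaged 5.16, 3.25 and 7.06 with the shRNA and 5.40, 3.79 and 6.36 with the empty vector. The part of this list in the values of Gata2 was not tested.

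The profiles most like those of Runx1 and Erg over the 10 arrays were found by the mean absolute difference of log2 values after each probe set was centred on its own mean, among genes whose brightest probe set had a mean log2 level above 5. For Runx1 (1422864_at), of 6721 candidates, the nearest were Ptprcap, a partner of the phosphatase CD45 (0.17), Ppfia1 (0.19), Tyw1 (0.20), Il18rap, a subunit of the interleukin 18 receptor (0.20), and Ankmy2 (0.20). Their changes ran between -0.81 for Ankmy2 and -0.51 for Tyw1, and all 5 were, like Runx1, lowest among the empty vector arrays in sample 5. For Erg (1440244_at), of 6720 candidates, the nearest were Il16, a cytokine (0.09), Trappc11 (0.11), Sec24a, a coat protein of transport vesicles (0.11), Tbl2 (0.11) and Creb1, a transcription factor activated by cyclic AMP (0.11). Their changes ran between -0.66 for Trappc11 and -0.39 for Sec24a. All 10 were picked by likeness over the arrays of both groups, so changes and low arrays like those of Runx1 or Erg follow from that choice. None of the 10 is a member of the lists above.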

How the data were processed

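The deposited table holds probe set intensities of 10 Affymetrix arrays, made by the authors with RMA (background correction, quantile normalization and probe summary), per the submitters' processing notes. Its version, settings and build were not given in the sources used here, and the linear scale was read from the values. Intensities were log2-transformed with no pseudocount, and 64 control probe sets were left out. Symbols came from the platform annotation and promoter windows from RefSeq (GRCm38.p6). The number of arrays limits the precision.

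Groups were compared by lmFit and eBayes of limma 3.58.1 (R 4.3.3), two-sided, with Benjamini-Hochberg adjustment over 45037 probe sets at a threshold of 0.05. The labels pair samples by number, so the number was a fixed block. Deviations of paired samples from their group means correlated at 0.310 to 0.600 over the 11215 probe sets brighter than 5 on the log2 scale. On simulated data for this comparison over 45037 probe sets, changes were put into 200 probe sets brighter than 5 on the log2 scale. Among them, 76% of changes of 1 and 20% of changes of 0.5 (log2) were recovered. These rates do not cover dimmer probe sets, among them all those of Runx1. A gene was represented by its brightest probe set. Named were all members, Meis1, up to 4 called genes a direction from each of 2 lists, and the 5 genes most like Runx1 and most like Erg. Further genes of the lists were named after their values were seen. Members and lists were chosen with earlier results of these data known. Alternatives covered pairing, scaling, a pseudocount of 16, a level filter, moderation, array weights, gene units, RNA integrity and each pair left out.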

Additional observations from a re-analysis of the deposited data

Results flagged for a closer look

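Lmo2 (1454086_a_at) read 792 in shRNA sample 5, against 554.7 to 602.7 in the other 4 shRNA samples, and the gap to the nearest was 0.798 of the group's range, above Dixon's critical value for groups of 5. Its partner, empty vector sample 5, was the highest of its group as well, at 887. Of the 46 groups of 5 values examined (20 member probe sets and 3 of Meis1, each in both groups) this 1 stood out, and chance alone marks about 1 in 20.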

How the results depend on the processing

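With no replicate block 816 probe sets were called on the whole array in place of 1116, 0 of the 20 member probe sets in place of 4 (9 at an unadjusted p under 0.05 by limma) and 0 of the 10 genes by their brightest probe set in place of 1. With the pair as a random block 1 member probe set passed (Myb 1422734_a_at) and 0 genes. Array-wide counts were 2040 with the filter on dim probe sets, 2309 with trend and robust moderation, 33 without moderation, 739 over genes and 0 with the integrity ratio as a covariate (2504 at an unadjusted p under 0.05). Member probe sets numbered 3 with the pseudocount and 3, of the 12 left, with the filter, which called 2040 of 11215 on the array. They numbered 8 with trend and robust moderation and 0 without moderation or with the covariate (11 and 2 at an unadjusted p under 0.05 by limma). Genes by their brightest probe set numbered 2 with the pseudocount, 3 with trend and robust moderation, 0 without moderation, 2 over genes, 3 with the mean of a gene's probe sets and 0 with the covariate. With each pair left out in turn the counts ran from 359 to 1674, from 1 to 5 and from 0 to 1, and the relatives and partners called ran from 0 to 1 in place of 2. Of the relatives and partners, 1 was called with the pseudocount and 0 without moderation. Of the reported targets, 4 were called with the pseudocount, the filter, over genes or with the mean of probe sets, and 1 without moderation, in place of 2. Of the array-wide calls 78.9% were lower, 65.0% after quantile normalization and 85.0% with median centring. No member probe set was called higher in any setting.

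Signs turned only where the change was small or not called. Gfi1b was at 0.020 after quantile normalization and 0.37 with the covariate, Gata2 1450333_a_at at 0.19 and Runx1 1427650_a_at at 0.34 with the covariate, and Runx1 1452530_a_at at -0.037 with median centring and -0.045 with array weights. With a pair left out, 1427650_a_at ran from -0.19 to 0.0097, 1452530_a_at from -0.061 to 0.074 and 1452531_at from -0.21 to 0.091. The causes were not tested. The alternatives for named genes outside the circuit and for the 2 lists, and the marker sum without Mcpt8, were chosen after seeing the data.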
